A study of Mus musculus with 4 samples.

Results

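The nuclear genes for subunits of the mitochondrial respiratory chain were followed, complex by complex, on 4 cDNA arrays of mouse spinal cord. Members were the genes whose symbol in the probe-to-gene table of the array platform began with Nduf plus a, b, c, s or v and a digit (complex I), was Sdha to Sdhd (complex II), or began with Uqcr (complex III), Cox4 to Cox8 (complex IV) or Atp5 (complex V), leaving out the Ndufaf assembly factors. This gave 69 of the 10225 genes on the array: 32 for complex I, 2 for complex II (Sdhb and Sdhd), 7 for complex III, 13 for complex IV and 15 for complex V. They lay on 111 spots, with 33 genes on 1 spot, 31 on 2 spots, 4 on 3 spots and Uqcrc2 on 4 spots. Cox7a2l, which matches by symbol, codes for a factor that joins complexes into supercomplexes and not for a subunit of complex IV itself.

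The mice were adult SJL/J females, either controls, of which the labels say no more, or animals with AT-EAE. The abbreviation stands for experimental autoimmune encephalomyelitis by adoptive transfer, an inflammatory model of multiple sclerosis started by transferred myelin-reactive T cells. An extract was RNA pooled from the cords of 2 mice, so a single animal cannot be seen. Each array carried 2 extracts of the same group, 1 per channel, so that 2 control arrays, here C1 and C2, held 4 control extracts and 2 AT-EAE arrays, here E1 and E2, held 4 AT-EAE extracts. Plots call them control array 1 and 2 and AT-EAE array 1 and 2. Values in a series are given in the order C1, C2, E1 and E2.

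The respiratory chain carries electrons from NADH and succinate to oxygen and stores the energy as a proton gradient across the inner mitochondrial membrane. Complex I (NADH dehydrogenase) and complex II (succinate dehydrogenase) feed electrons to ubiquinone, complex III passes them to cytochrome c, complex IV (cytochrome c oxidase) reduces oxygen, and complex V (ATP synthase) makes ATP from the gradient. In nervous tissue this supply supports ion pumping and axonal transport, and mitochondrial injury is a known feature of inflamed white matter.

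What the values can show has to be stated first. Each value was taken to be the log2 ratio between the 2 extracts of an array, averaged over the spots of a gene, and is given here minus the median over all genes of that array ("relative ratio"). Neither the log base nor the numerator channel is settled by the sources, so a positive relative ratio says only that the gene was shifted towards the numerator extract compared with the typical gene. Both extracts of an array had the same condition, and the ratios therefore do not measure how far a level in diseased cord differs from control. That comparison of levels was not analysed here. Fewer cells of a type and less RNA per cell cannot be told apart in such whole-cord extracts.

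Over the whole array, 37.6% to 73.6% of the 28704 spots had a value, fewer on the AT-EAE arrays. The spread over genes, as the standard deviation from the median absolute deviation, was 0.18, 0.23, 0.17 and 0.33. Spots of the same clone differed with a standard deviation of 0.20, 0.26, 0.19 and 0.23, over 56 to 62 genes, which gives the technical error between spots. As a check of the tissue, the neuronal genes Syt1 and Tubb3, the myelin genes Mbp, Cnp and Mal and the astrocyte genes Slc1a2, Slc1a3, Aldoc, Glul and Fabp7 had values on C2, although a ratio does not show a level. The single T cell marker on the array had no value on any array.

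The first comparison was which subunits gave a value on which arrays. In this measure control and AT-EAE arrays can be set side by side. With 2 arrays per group, a difference between groups cannot be told apart from one in the quality of single arrays. Most respiratory chain genes had a value on the AT-EAE arrays, where many of all genes had none. Of the 69 genes, 66 had a value on C1 and 65 on C2 (95.7% and 94.2%, against 86.2% and 80.1% of all genes). There were 63 on E1 and 61 on E2 (91.3% and 88.4%, against 72.4% and 54.9% of all genes). The mean share was 94.9% ± 1.02 (SD, n = 2) for control arrays and 89.9% ± 2.05 (SD, n = 2) for AT-EAE arrays, a difference of -5.07 percentage points. Both AT-EAE arrays were below both control arrays, but 2 arrays against 2 cannot go below p = 0.333, the value found (2-sided exact permutation test). Over all genes the difference was -19.5 points, also with an exact permutation p of 0.333. Counted over spots the difference for members was -8.11 points (exact permutation p = 0.333), against -25 points for all genes. For members on at least 2 spots the difference in genes was -1.39 points (exact permutation p = 1). A gene on more spots needs a value on only 1 of them, and the matching difference for all genes was not computed.

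**Figure D1:**
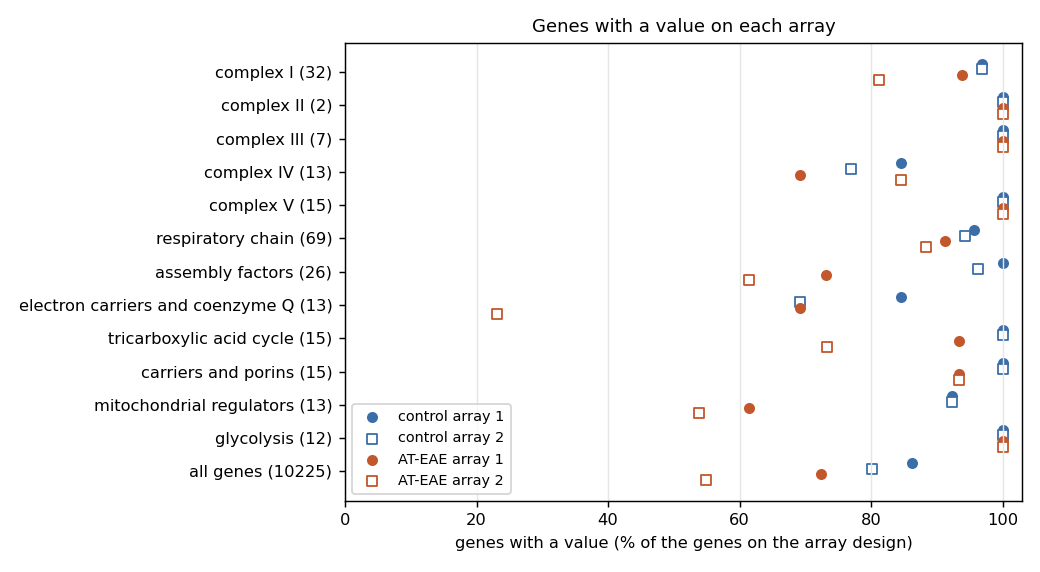
Share of the genes on the array design that had a value on each of the 4 arrays (horizontal axis, percent), for each respiratory chain complex, related gene lists and all genes, with the number of genes in brackets. Complexes II, III and V stayed at 100% on every array, while 54.9% of all genes had a value on E2.

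The complexes differed in this. All 15 complex V genes, all 7 complex III genes and both complex II genes had a value on every array. Complex I had 31 of 32 genes on both control arrays, 30 on E1 and 26 on E2. Complex IV had 11, 10, 9 and 11 of 13 genes, the smallest share of any complex on C1, C2 and E1, while on E2 the share of complex I was smaller. The complex IV shares were 84.6%, 76.9%, 69.2% and 84.6%, against 86.2%, 80.1%, 72.4% and 54.9% of all genes. Complex IV was thus below the share of all genes on C1, C2 and E1. The AT-EAE minus control differences had exact permutation p-values of 0.333 for complex I and 1 for complex IV.

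In all, 59 members (85.5%) had a value on all 4 arrays, against 53.1% of all genes. Cox4i2, the alternative isoform of the complex IV subunit 4, the subunit 5b gene Cox5b and the complex I accessory gene Ndufa6 had no value on any array, each with a single spot (4.35% of members, against 11.9% of all genes). Ndufs6 was the 1 member with values on both control arrays and neither AT-EAE array, a pattern shared by 9.14% of all genes. Ndufb3, Ndufs1, Ndufs5 and Ndufs7 had values on both control arrays and E1 and none on E2 (5.8% of members, against 16.3% of all genes). Each of these genes had a single spot. Of the 6 Ndufs genes, 2 had a value on E2, Ndufs4 and Ndufs8 (33.3%, against 54.9% of all genes). These 6 hold both core and accessory genes, and Ndufs4 alone of them lay on more than 1 spot.

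Among single spots, 93.7%, 91.9%, 88.3% and 81.1% of the 111 member spots had a value. For all spots assigned to 1 gene the shares were 80.9%, 72.9%, 61.7% and 42.1%. Which signal a spot needed to receive a value is not stated, and the part of signal strength in these shares was not tested.

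Other genes of energy metabolism, listed by function, varied in this respect. Of 26 assembly factor genes, whose proteins build the complexes without staying in them, 26, 25, 19 and 16 had a value. Of 13 electron carrier and coenzyme Q genes 11, 9, 9 and 3 had one, and cytochrome c (Cycs) was 1 of the 3. Of 13 regulators of mitochondrial genes 12, 12, 8 and 7 had one. Of all genes 86.2%, 80.1%, 72.4% and 54.9% had one. On E1 and E2 the shares were 73.1% and 61.5% for assembly factors, 69.2% and 23.1% for electron carriers and 61.5% and 53.8% for regulators. The 12 glycolysis genes had values on every array. Values were present for 15, 15, 14 and 14 of the 15 genes of mitochondrial carriers and porins, which was 93.3% on E2 against 88.4% for the chain. Of the 15 tricarboxylic acid cycle genes 15, 15, 14 and 11 had one. Each of these group differences has an exact permutation p of at least 0.333, as 4 arrays allow nothing smaller.

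The second comparison was whether the complexes lay to the same side of the typical gene. They did so most on C2, where complexes I, III, IV and V all had a median relative ratio of 0.25 to 0.36. Of the 65 members with a value there, 58 lay above the array median, where 50% of all genes lie by construction. The median was 0.31, and the quartiles of all genes ran from -0.17 to 0.14. On C1 the members had a median of 0.03 with 37 of 66 above (background 50%). On E1 it was 0.09 with 43 of 63 above (background 50%), and on E2 it was 0.01 with 32 of 61 above (background 50%). No member reached a relative ratio of 1, a 2-fold difference if the base was 2, on any array, where 0.125%, 0.403%, 0.378% and 1.03% of all genes did so in the same order.

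By complex, C2 had medians of 0.25 for complex I (27 of 31 genes above), 0.36 for complex III (6 of 7), 0.35 for complex IV (10 of 10) and 0.31 for complex V (14 of 15). The 2 complex II genes were split there, with Sdhd at 0.36 and Sdhb at -0.05. The highest and lowest of these medians, over complexes with at least 3 genes, were 0.12 apart, and the complexes overlapped. On C1 the 4 medians were 0.03, 0.07, 0.06 and -0.01 for complexes I, III, IV and V, a range of 0.08, and on E1 they were 0.09, 0.10, 0.18 and 0.04, a range of 0.14.

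**Figure D2:**
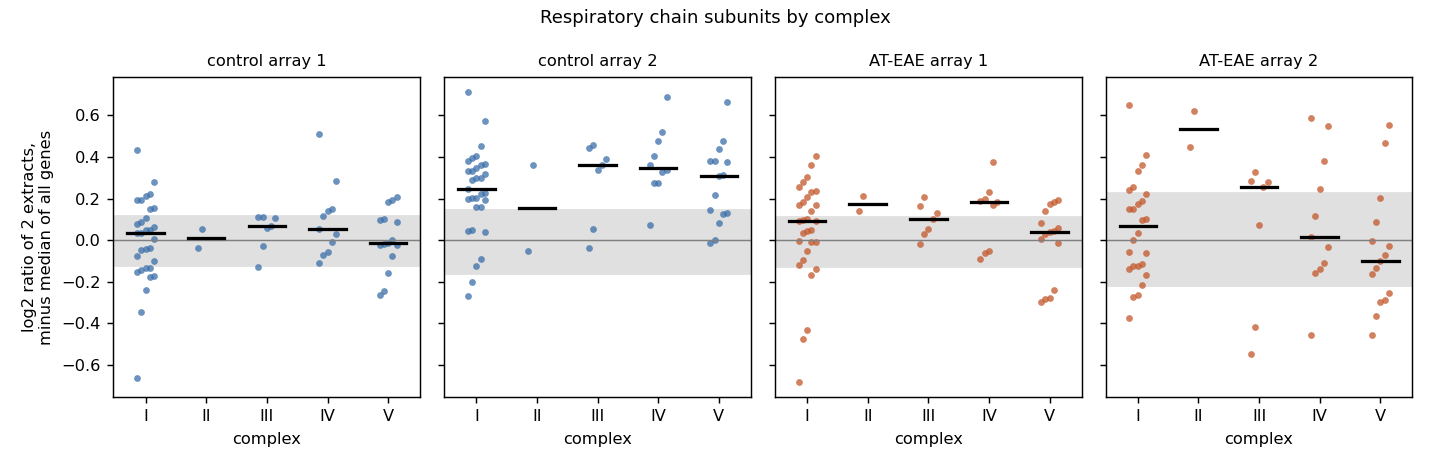
Relative log2 ratio of each respiratory chain gene (points) by complex on the 4 arrays, with the complex median (black bar) and the range between the quartiles of all genes (grey band). On C2 the medians of complexes I, III, IV and V lie between 0.25 and 0.36, above the grey band, and on E2 they spread from -0.10 for complex V to 0.26 for complex III.

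E2 had the widest gap between the complex medians. Complex II was at 0.53 (2 of 2 genes above), complex III at 0.26 (5 of 7), complex I at 0.07 (15 of 26), complex IV at 0.01 (6 of 11) and complex V at -0.10 (4 of 15, so that 11 lay below). The medians of complexes III and V differed by 0.36, and their genes overlapped. This order did not hold with members on at least 2 spots alone, where complex IV was at 0.18 (4 genes), complex I at 0.0029 (13 genes), complex V at -0.06 (4 genes) and complex III at -0.13, on the 2 genes Uqcrc2 and Uqcr11. The list mean of complex III was 0.04. An array is a single measurement of its extracts, and no test over genes was made.

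The size of the shifts overlapped between the groups. The median absolute relative ratio of members was 0.11, 0.31, 0.14 and 0.21, and that of all genes 0.12, 0.15, 0.12 and 0.22. AT-EAE minus control gave a difference of -0.03, which was smaller than the spread among control arrays (exact permutation test, 2-sided p = 1). It turned to 0.07 without C2 and to 0.01 without E1.

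Complex I takes electrons from NADH through flavin and iron-sulfur clusters in its matrix arm, and most of its other subunits surround this core or lie in the membrane arm. The array held 5 of the nuclear core subunits: Ndufv1, which binds NADH and flavin, and the iron-sulfur proteins Ndufv2, Ndufs1, Ndufs7 and Ndufs8. Core genes lay above the array median on most arrays. They did so for 5 of 5 on C1 (median 0.21), 4 of 5 on C2 (0.22), 4 of 5 on E1 (0.18) and 3 of 3 on E2 (0.26). The 27 accessory genes were at medians of -0.04, 0.27, 0.05 and 0.0029 on the 4 arrays, with 12 of 26, 23 of 26, 15 of 25 and 12 of 23 above. The 2 sets overlapped on every array.

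Ndufv1 had the narrowest range of all complex I genes with values on all 4 arrays, at 0.22, 0.20, 0.18 and 0.26. Ndufv2 was at 0.21, 0.38, 0.23 and 0.24, and Ndufs8 at 0.11, 0.22, 0.31 and 0.33. Both were also above the median on every array. Ndufs7, which carries the cluster that hands electrons to ubiquinone, was at 0.28 and 0.57 in control, -0.14 on E1 and without a value on E2. Ndufs1, a large iron-sulfur protein of the matrix arm, was at 0.08, -0.20 and 0.09, also without a value on E2.

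**Figure D3:**
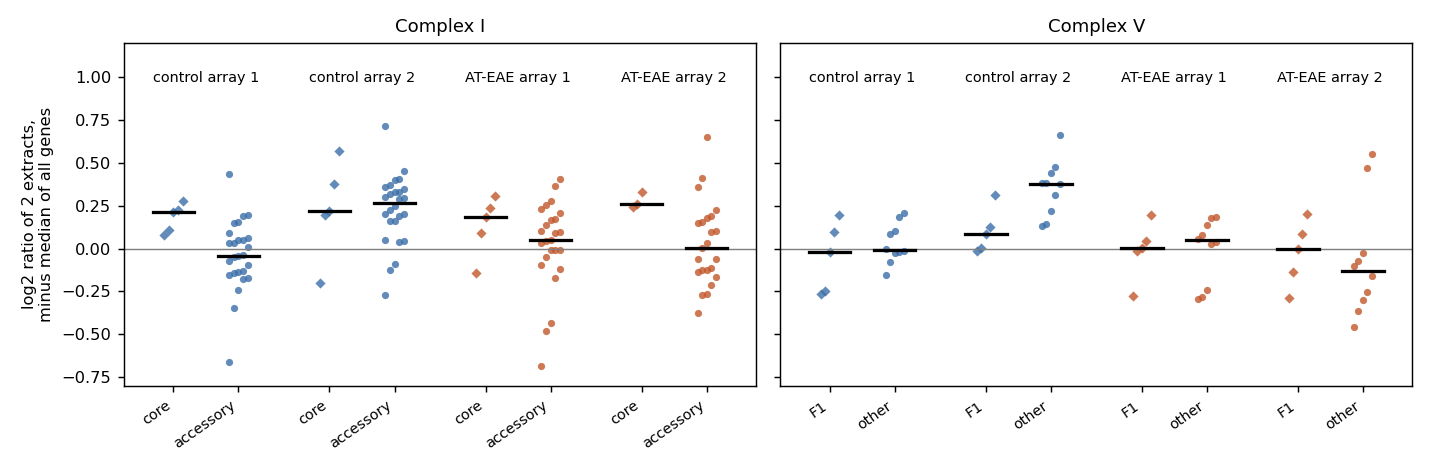
Relative log2 ratios of complex I core (diamonds) and accessory genes (circles), left, and of complex V F1 (diamonds) and other genes (circles), right, on the 4 arrays, with medians as black bars. The F1 genes of complex V had a median of 0.08 on C2 and the other complex V genes one of 0.38.

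Accessory genes of complex I gave both the highest and the lowest values of the whole chain. Ndufb4, a membrane arm subunit, was the highest member on C2 at 0.71 and lay at -0.17 on C1, 0.05 on E1 and -0.06 on E2. Ndufa10, an accessory subunit of the membrane arm, was the lowest member on C2 at -0.27 and the highest on E2 at 0.65, with 0.09 and 0.23 on C1 and E1. Ndufc2, a membrane arm subunit, had the widest range of the complex, 1.11, from -0.66 on C1 to 0.45 on C2, with 0.21 and 0.15 on the AT-EAE arrays. Only 1 of its 2 spots had values.

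On E1 the lowest members were the complex I accessory genes Ndufb3 at -0.68, Ndufv3 at -0.48 and Ndufs5 at -0.43. Ndufv3 was at 0.19, -0.09 and 0.04 on C1, C2 and E2. Ndufb3 was at -0.18 and -0.12 in control and Ndufs5 at -0.07 and 0.05. The matrix arm genes Ndufa12, at 0.40, and Ndufa5, at 0.36, were among the highest there, together with Cox6c of complex IV at 0.37.

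Complex II, which is also the succinate dehydrogenase of the tricarboxylic acid cycle, was represented by its iron-sulfur subunit gene Sdhb and its membrane anchor gene Sdhd. Sdhd was at 0.05, 0.36, 0.21 and 0.62, and Sdhb at -0.04, -0.05, 0.14 and 0.45. Both had their highest value on E2. Sdhb rested on 2 spots in control and on 1 in AT-EAE.

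Complex III holds the core proteins Uqcrc1 and Uqcrc2, the Rieske iron-sulfur protein Uqcrfs1 and small subunits. Its genes split on E2, a division noticed after the values were seen. Uqcrfs1, Uqcrc2, Uqcrb and Uqcrc1 lay above the median there, at 0.33, 0.28, 0.28 and 0.26, and Uqcrh was near it at 0.07. Uqcr10 and Uqcr11 were at -0.42 and -0.55, Uqcr11 being the lowest member of the whole chain on that array. As Uqcrb and Uqcrh are small subunit genes like Uqcr10 and Uqcr11, the small subunits lay on both sides of the median. The Uqcrc2 value on E2 is a mean of 4 spots that run from -0.49 to 1.08. Uqcrc1 and Uqcrfs1 each had a value on 1 of 2 spots on E2, the spot that was higher on the other arrays. On E1 the spots were at -0.10 and 0.21 for Uqcrc1 and at 0.03 and 0.24 for Uqcrfs1. The part of the missing spots in these E2 values was not tested. On C2 Uqcr10 and Uqcr11 were among the higher genes, at 0.46 and 0.36. Uqcrb and Uqcrc2, which lay above the median on E2, were also high on C2, at 0.44 and 0.39, and Uqcrh was at 0.34. Uqcrc1 and Uqcrfs1 were lower there, at 0.06 and -0.04. Uqcrc1 kept the narrowest range of the complex, with 0.07 and 0.06 in control and 0.05 on E1. These are means of 2 spots, and its E2 value rests on 1 spot.

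In complex IV the isoform genes on the array were mostly those found in many tissues. Cox6b1 was at 0.12, 0.41, 0.17 and 0.25 and Cox7a2 at 0.14, 0.48, 0.19 and 0.12, both above the median on all 4 arrays. Cox6a1 was at 0.03, 0.33, 0.23 and -0.16, and Cox4i1 at -0.05, 0.27, -0.09 and 0.01. Each of these 4 had its highest value on C2. Cox6b2, known as the testis isoform, had a value on C1 (0.15) and E2 (0.38), from different spots, so these are not a repeat of the same measurement.

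Cox6c was high on 3 arrays, at 0.28, 0.69 and 0.37, and lay at -0.14 on E2. Cox8a was at 0.51 and 0.52 in control, -0.46 on E2 and without a value on E1, on 1 of its 2 spots. Cox7b was high on E2, at 0.59, below Ndufa10 and Sdhd alone among all members, after 0.06, 0.36 and 0.18 on the other arrays. Cox5a was at -0.11, 0.27, 0.20 and -0.03.

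Complex V consists of the F1 head, where ATP is made, and a membrane part with the proton-carrying ring and a stalk that holds the head in place. On C2 most other complex V genes lay higher than the F1 genes, with overlap. The 5 F1 genes had a median of 0.08, with the catalytic beta subunit gene Atp5b at 0.31, Atp5c1 at 0.12, Atp5a1 at 0.08 and Atp5d and Atp5e at -0.01 and 0.00. The other 10 genes had a median of 0.38 and all lay above the median. Highest were Atp5j2 at 0.66, Atp5k at 0.48, Atp5j at 0.44, Atp5l at 0.38 and Atp5mpl at 0.38. Atp5pb, Atp5md and Atp5g1, at 0.13, 0.14 and 0.22, lay within the range of the F1 genes.

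On the other arrays the 2 sets lay closer together. F1 and other genes had medians of -0.02 and -0.01 on C1, 0.0042 and 0.05 on E1, and -0.0045 and -0.13 on E2. On E2, 8 of the 10 other genes were below the median, with Atp5mpl at -0.45, Atp5k at -0.37 and the stalk gene Atp5o at -0.30, and Atp5pb at 0.55 and Atp5j at 0.47 were the 2 above. Atp5c1, the central stalk gamma subunit gene, had the narrowest range of the complex at 0.10, 0.12, 0.04 and 0.20. Atp5j2 had the widest, at 0.21, 0.66, -0.28 and -0.25.

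The spots of a gene are the nearest thing to a repeat measurement on an array. On C2, 31 members had at least 2 spots with a value, and in 19 of them every spot lay above the median of all genes, against 23.3% of all genes with 2 or more spots. In 0 members did every spot lie below it, against 24.4% of all genes. On C1, E1 and E2 all spots lay above in 7 of 32, 13 of 29 and 8 of 23 members, against 23.3%, 22.6% and 30.9% of all genes. All lay below in 7, 4 and 6, against 17.8%, 23.8% and 18.4%. The standard deviation between different clones of a member was 0.24, 0.23, 0.16 and 0.30, and 0.24, 0.27, 0.25 and 0.37 for all genes.

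Some genes repeated closely on the control arrays. The 2 spots of Cox7a2 were at 0.10 and 0.18 on C1 and at 0.47 and 0.49 on C2, and those of Ndufa7 at 0.05 and 0.04, and at 0.33 and 0.34. For these genes the control arrays differed by more than the spots did on them. On E1 and E2 the Cox7a2 spots were at 0.15 and 0.23, and at -0.02 and 0.25. Those of Ndufa7 were at 0.12 and -0.06, and at 0.12 and 0.09. The Cox7a2 spots on E2 and the Ndufa7 spots on E1 thus lay on both sides of the median.

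Others did not repeat, and their gene values are means of unlike spots. Uqcrc2 had the widest range between spots, with values of -0.49, 0.79, -0.24 and 1.08 on E2, although its mean there was 0.28. The spots at 0.79 and -0.24 carry the same clone. The Atp5j2 spots were at 0.82 and -0.40 on C1 and at 1.03 and 0.30 on C2. The Cox7a2l spots were at 1.04 and 0.06 on E2, and those of Atp5g1, 1 of the genes for the proton-carrying ring, at 0.12, 0.38 and -0.58. Atp5b, on 3 spots, was steadier, at 0.22, 0.22 and 0.50 on C2 and between 0.00 and 0.21 on E2.

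**Figure D4:**
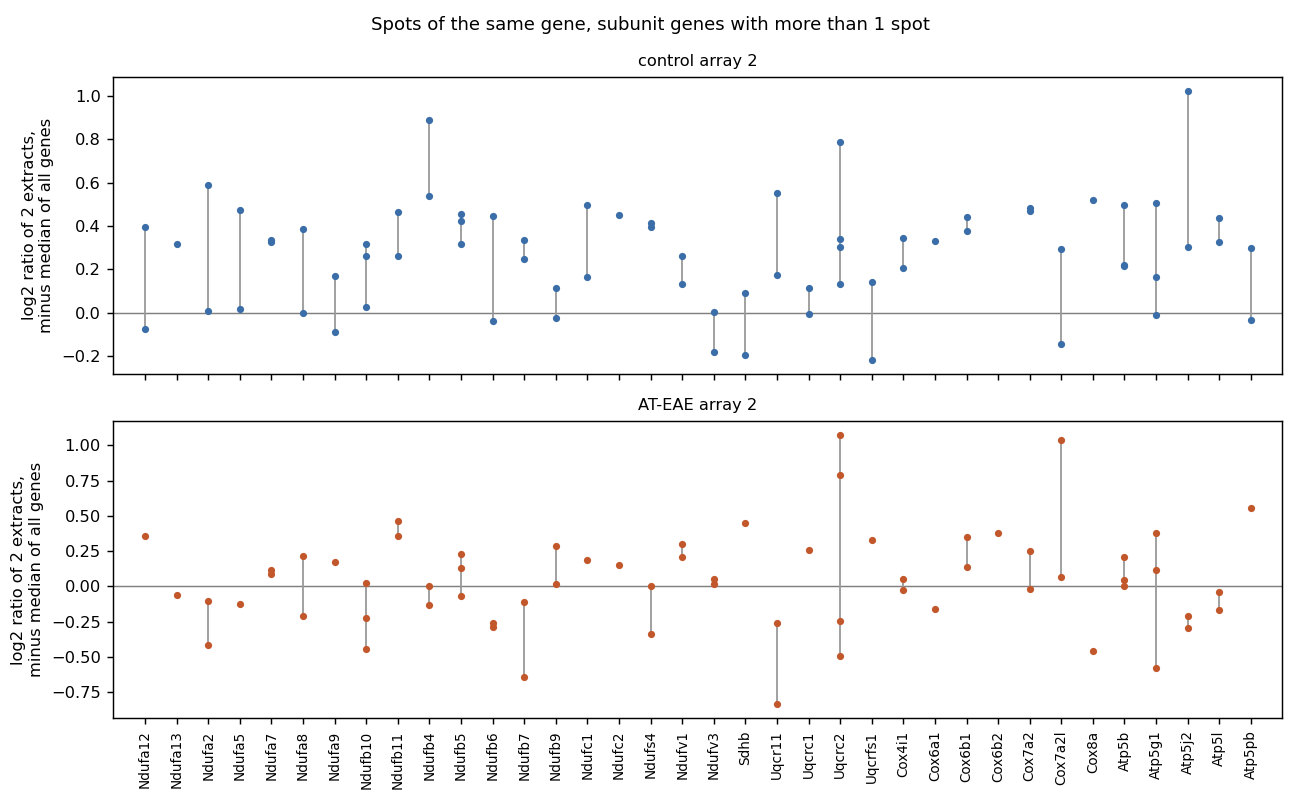
Relative log2 ratio of each spot (points, joined by a grey line per gene) for subunit genes with more than 1 spot, on C2 (top) and E2 (bottom). On C2 every spot lies above 0 in 19 of the 31 genes with at least 2 values, and on E2 the 4 Uqcrc2 spots run from -0.49 to 1.08.

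A ratio shared by all 4 arrays was tested with limma over the 5429 genes with values on all arrays. Of the 59 members tested, 0 passed at an adjusted p of 0.05 (Benjamini-Hochberg), against 0.0184% of all genes, the single gene Shmt2. At an unadjusted p under 0.05, limma found 11 of 59 members, against 11.7% of all genes. The smallest adjusted p was that of Sdhd, at 0.345, with a mean of 0.31 ± 0.11 (standard error) and a positive value on 4 of 4 arrays. Any part of the channels in such shared ratios was not tested. Without testing, 17 of the 59 lay above the array median on all 4 arrays, against 11.9% of all genes, and 0 lay below it on all 4, against 11.1%. The 17 included Ndufv1, Ndufv2 and Ndufs8 of the complex I core, Sdhd, Uqcrb, Uqcrc1 and Uqcrc2, Cox6b1, Cox7a2 and Cox7b, and Atp5b, Atp5c1 and Atp5pb.

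AT-EAE minus control for the ratios, run as a check because it is no difference in level, called 0 of the 59 members in limma (smallest adjusted p 0.997). At an unadjusted p under 0.05 there were 6, against 3.46% of all genes. Without E1 the same fit called 1 of 60 members, Cox8a, at -0.97 (limma, adjusted p = 0.0403), against 1.42% of all genes, so the share of members called was near the background. That gene had no value on the omitted array and so could not enter the test of all 4.

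The genes around the respiratory chain were taken as whole lists. On C2 the tricarboxylic acid cycle, which feeds the chain, had its list median on the other side of the array median. Its 15 genes had a median of -0.13 with 6 above, and Pdhx was lowest at -0.49. Their quartiles, -0.26 and 0.055, lay on both sides of 0, and the list median lay within the quartiles of all genes, -0.17 and 0.14. Assembly factors were at 0.13 with 18 of 25 above, carriers and porins of the mitochondrial membranes at 0.17 with 11 of 15 above, with the porin gene Vdac1 at 0.51, and glycolysis genes at 0.10 with 10 of 12 above. Regulators were at -0.01 with 6 of 12 above, and electron carriers at -0.04 with 4 of 9 above. The background for each count is 50%.

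On E2 the order was another. The glycolysis genes lay above the median in 12 of 12 cases, at 0.22, with Gapdh highest at 0.61, and the tricarboxylic acid cycle genes in 10 of 11 cases, at 0.18, with Mdh2 at 0.69 and Idh2 at -0.85. Carriers and porins were at 0.19 with 9 of 14 above, from Slc25a11 at -0.23 to the adenine nucleotide carrier gene Slc25a5 at 1.10. Regulators were at 0.16 with 4 of 7 above, assembly factors at -0.03 with 7 of 16 above and electron carriers at -0.32 with 1 of 3 above. On the same array complex V was at -0.10 and the whole chain at 0.01. No gene of these lists passed limma for a ratio shared by the 4 arrays, since Shmt2 is in none of them.

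**Figure D5:**
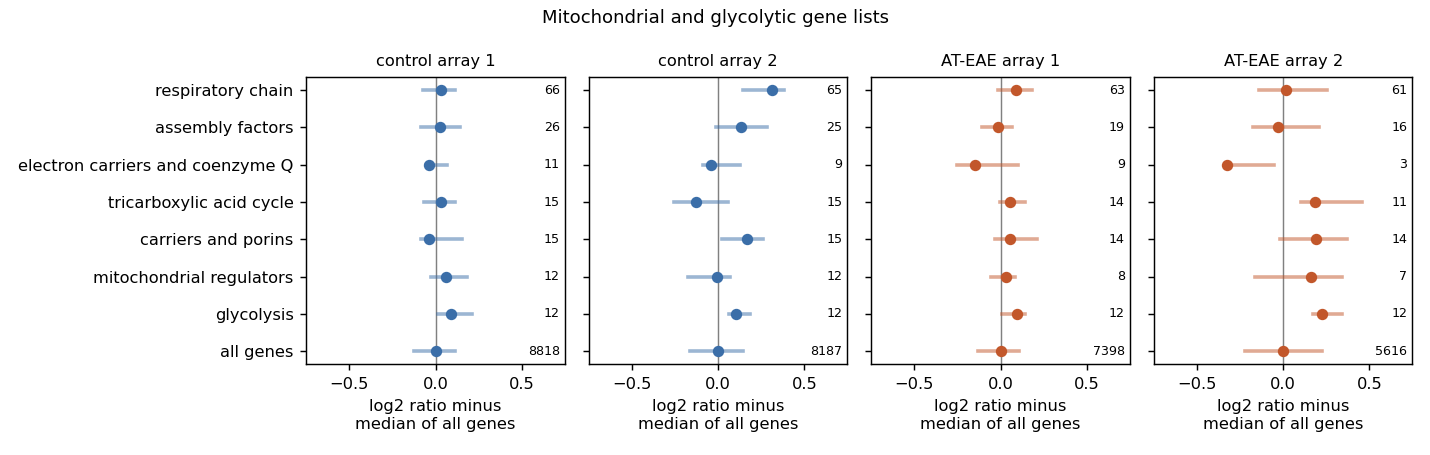
Median relative log2 ratio (points) and quartiles of the genes (bars) for the respiratory chain, related gene lists and all genes on the 4 arrays, with the number of genes with a value at the right. The respiratory chain is at 0.31 and the tricarboxylic acid cycle at -0.13 on C2, and the tricarboxylic acid cycle and glycolysis lists are at 0.18 and 0.22 on E2.

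Cell type markers lay on both sides of the median on C2. Neuronal markers were at -0.13 (2 of 5 genes above), myelin markers at -0.10 (0 of 3) and microglia and macrophage markers at 0.01 (3 of 5), and skeletal muscle markers at -0.09 (1 of 3). Astrocyte markers were at 0.14 with 4 of 5 above, from Slc1a2 at -0.90 to Fabp7 at 0.84, and their part in the shift was not tested. On E2 neuronal markers were at -0.12 (0 of 4 above), myelin markers at 0.08 (2 of 3), microglia and macrophage markers at 0.02 (2 of 3), astrocyte markers at 0.02 (2 of 4) and muscle markers at -0.22 (1 of 2). On E1 all 5 microglia and macrophage markers lay below, at -0.56 with Lyz2 lowest at -1.02, and so did all 3 myelin markers, at -0.22 with Cnp lowest at -0.56, and both muscle markers, at -0.14. Neuronal markers were at 0.01 (3 of 5 above) and astrocyte markers at 0.02 (3 of 5), and the chain was at 0.09. Their part was not tested either.

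Gene length was looked at after the values were seen. It moved with the ratios of C2 and, among members, in the opposite direction with those of E2. Subunit genes are short, with a median genomic span of 7.13 kb in the GRCm38.p6 gene table, against 23.9 kb for the 9895 other genes with a span, ribosomal protein genes left out. Among those other genes, the shortest 20% (up to 8.04 kb) had a median of 0.07 on C2 and the longest 20% one of -0.07. The subunit genes in the shortest class were at 0.34 there, with 37 of 39 above the median. In the next class (up to 17.2 kb) subunit genes were at 0.20, with 15 of 17 above, and other genes at 0.03. In both classes the median of the subunit genes was higher than that of the other genes. On E2 the shortest subunit genes were at -0.11 (15 of 38 above) and other genes of that class at -0.03. In the class up to 17.2 kb subunit genes were at 0.07 there (10 of 15 above) and other genes at -0.01. In the class up to 32.1 kb they were at 0.26 (6 of 6 above) and 0.02. Spearman's rho between span and ratio was -0.0019, -0.23, 0.19 and 0.37 over members. Over the other genes it was 0.02, -0.21, -0.06 and 0.02. Genomic span includes introns and is not transcript length, and the part of RNA length or quality was not tested.

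Promoters are shown because most members moved together on C2 and because many nuclear genes of the respiratory chain are known to be controlled by the factors NRF1 and the ETS family member NRF2 (GABP). RefSeq promoters (GRCm38.p6, 250 bases before to 50 after the start site) were matched to 59 of the 69 members. The core of the NRF1 site, GCGCA followed by any base N and GCGC, was found on either strand in 14 of 59 (23.7%), against 11.2% of the 8109 genes of the array with a promoter. The ETS core CCGGAAG was found in 16 of 59 (27.1%), against 19.0%, and 4 promoters held both. Below are the 200 bases before the start site of the member of each complex that was highest on C2 among those with an NRF1 match there, with NRF1 and ETS matches in capitals. No complex III member met this. All 4 genes lie on the minus strand, and the sequences read 5′ to 3′ along the gene: Ndufb4 at chr16:37654369-37654568, Sdhd at chr9:50603850-50604049, Cox6a1 at chr5:115348959-115349158 and Atp5k at chr5:108434400-108434599.
Ndufb4: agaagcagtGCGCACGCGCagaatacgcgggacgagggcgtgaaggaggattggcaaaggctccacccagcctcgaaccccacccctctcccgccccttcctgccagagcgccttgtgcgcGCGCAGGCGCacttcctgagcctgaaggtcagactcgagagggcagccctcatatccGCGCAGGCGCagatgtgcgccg
Sdhd: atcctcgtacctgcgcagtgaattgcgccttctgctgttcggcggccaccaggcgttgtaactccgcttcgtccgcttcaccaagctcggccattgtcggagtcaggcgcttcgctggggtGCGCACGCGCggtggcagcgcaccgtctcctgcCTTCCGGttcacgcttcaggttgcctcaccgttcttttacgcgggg
Cox6a1: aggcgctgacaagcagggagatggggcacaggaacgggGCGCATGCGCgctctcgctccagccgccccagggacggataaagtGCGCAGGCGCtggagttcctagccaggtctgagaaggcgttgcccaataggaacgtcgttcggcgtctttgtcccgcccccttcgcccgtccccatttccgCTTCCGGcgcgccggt
Atp5k: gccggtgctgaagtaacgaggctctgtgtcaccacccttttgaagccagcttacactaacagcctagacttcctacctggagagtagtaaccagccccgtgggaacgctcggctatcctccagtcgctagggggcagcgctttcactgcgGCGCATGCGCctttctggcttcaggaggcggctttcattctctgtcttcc

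The Ndufb4 stretch holds 3 NRF1 matches, Cox6a1 holds 2, and Sdhd and Atp5k hold 1 each. Sdhd and Cox6a1 also hold 1 ETS match each, in the reverse orientation. Members with an NRF1 match were at a median of 0.31 on C2 (13 genes) and those without at 0.31 (43 genes). On E2 they were at -0.07 (11 genes) and 0.09 (42 genes), with ranges that overlapped, from -0.37 to 0.62 and from -0.55 to 0.65. Members with and without the ETS match were at 0.33 (16 genes) and 0.29 (40 genes) on C2, and at -0.12 (16 genes) and 0.10 (37 genes) on E2, with overlapping ranges from -0.55 to 0.62 and from -0.42 to 0.65. A match is a run of letters and does not show binding.

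Between arrays the members did not keep the same order. Over the 65 members with values on both control arrays Pearson's r was 0.25 (0.11 over 8081 genes), and over the 59 with values on both AT-EAE arrays 0.33 (0.19 over 5525 genes). Between C2 and E2 it was -0.34 over 60 members (0.00 over 5498 genes). For C1 with E1 it was 0.04 over 63 members (0.15 over 7312 genes). For C1 with E2 it was -0.07 over 61 members (0.30 over 5559 genes). For C2 with E1 it was 0.21 over 63 members (0.31 over 7125 genes). Members thus had a higher r than all genes within each group and a lower one between groups. These correlations are across genes and serve as descriptions. Arrays share the channels and the array design, and genes are not independent replicates.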

How the data were processed

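The deposited values of 4 cDNA arrays with 2 channels, 2 of control and 2 of AT-EAE spinal cord, were used as log2 ratios of normalized channel signals made by the authors, per the labels and from the values, which are signed with a median near 0. Log base, numerator channel, background correction, spot filter, normalization method and software: not given in the sources used here. Signal over background was not analysed, and the number of arrays limits the precision.

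Spots with 1 gene in the platform's table (18511 of 28704) were averaged per gene. The median over genes of each array was then subtracted. The limma comparison of ratios (lmFit, eBayes, Benjamini-Hochberg) was fitted over all genes with values on the 4 arrays and tested on simulated data. Shares and median absolute ratios were compared by exact permutation over 6 splits of the arrays. P-values measure the spread between arrays, which mixes differences between pooled extracts with technical differences between arrays. They do not measure the spread between single mice. Columns of no sample numbered 0.

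Named genes were core subunits, isoform sets, the 3 highest and 3 lowest members per array, members with an absolute ratio of at least 1, with values on no AT-EAE array or called by limma, the 3 with the widest spot ranges and the 3 with most spots, and the widest and narrowest of each complex. Others were named after their values were seen. Members and lists were chosen with earlier results of these data known. Symbols and coordinates are from RefSeq GRCm38.p6, where all 69 members matched.

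Alternatives were the median over spots, members with values on all 4 arrays or on at least 2 spots, omission of Cox7a2l, centring on spots, list means, spot-level fits, uncentred values, a replicate block and omission of each array. Python 3.11.15, numpy 2.4.6, pandas 2.3.3, scipy 1.17.1, matplotlib 3.10.9, R 4.3.3 and limma 3.58.1 were used.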

Additional observations from a re-analysis of the deposited data

How the results depend on the processing

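Of 142 values of the chain and complex medians under another setting, 135 stayed within 1 standard deviation between the arrays of the group. The other 7 moved further, and 9 of the 142 changed sign, 7 of these 9 for medians under 0.1 from 0. Part of the 142 could not change. Omission of Cox7a2l leaves complexes I, II, III and V as they are, and complexes II, III and V had values on all 4 arrays. The standard deviation comes from 2 arrays and is a wide limit. Complex V on C1 went from -0.0144 to 0.1027 within it, with members on at least 2 spots. With members on at least 2 spots, complex I was at 0.042 on E1 and 0.0029 on E2, complex II at -0.0524 on C2 (Sdhb alone), complex III at -0.13 and complex IV at 0.18 on E2, and the complexes were 0.15 apart on C1. With list means, complex I was at 0.0423 on E1 and complex III at 0.0359 on E2. With members on all 4 arrays, the complexes were 0.0688 apart on C2. The cause was not tested. The whole chain on C2 stayed above the array median under every setting run.

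The AT-EAE minus control share of members with a value ran from -6.52 to -3.62 points as each array was left out, and the difference in median absolute ratio from -0.133 to 0.0705, turning to 0.0705 without C2 and to 0.00535 without E1. The share difference was -1.39 points among members on at least 2 spots (exact permutation p = 1), with no matching value computed for all genes.

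For the ratio shared by the 4 arrays, limma called 1 gene, 2 spots with spots as rows, 36 genes with values on at least 3 arrays, and 14 (without C2) to 227 genes (without E1) as each array was left out, with 18 without C1 and 58 without E2. No member was called in these fits. For the AT-EAE minus control check it called 1 gene, 0 spots (247 at an unadjusted p under 0.05), 6 genes with values on at least 3 arrays and 4 (without C2) to 78 genes (without E1) as each array was left out, with 13 without C1, 11 without E2 and 0 to 1 members, Cox8a without E1. A group left with a single array is assumed there to vary like the other. The array number as a replicate block left 1 gene and 0 members called. Same-numbered arrays deviated in opposite directions (r = -0.29 over 5429 genes), and the crossed pairing, chosen after seeing the data, also called 1 gene and 0 members. The numbers name extracts and pair nothing in the labels.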
